A study of Mus musculus with 8 samples.

Results

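Stefin dominant mature neutrophils were neutrophils of the long bone periosteum, late in maturation by their granule RNA. They held more RNA of stefin genes than of Il1b, Il1r2 and Ccrl2, the genes that mark most of their neighbours. A cell was taken as one when it had an S100a8 and S100a9 share of at least 2% of its RNA molecules, at least 1 Csf3r molecule, a summed Ngp, Camp and Ltf share under 0.5%, no Cd79a, and more Stfa2l1, Stfa1, Cstdc4 and Cstdc5 than Il1b, Il1r2 and Ccrl2 molecules. The members were thus chosen by their measured counts of these genes, so that the levels of the 14 genes of the rule are a description and support nothing further. Cells were kept when over 500 but under 8000 genes were detected and less than 20% of UMIs were mitochondrial, and among these kept cells the rule found 518 of 12253, 286 from mice on normal diet (ND) and 232 from mice on high-fat diet (HFD), which are called members here.

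The periosteum of femur and tibia was taken from male C57BL/6J mice at 16 weeks of age and digested with collagenase and dispase, and the released cells were sequenced in droplets (10x Chromium, 3′ chemistry). Each diet has 4 mice in the labels, and the methods give the HFD as 60% of calories from fat for 12 weeks from 4 weeks of age. The deposited data hold 1 pooled matrix per diet in which no cell is assigned to a mouse, so that no test between diets was possible and every difference compares 2 libraries. In this assay a count is a unique molecular identifier (UMI), which stands for 1 RNA molecule whatever the length of the transcript, so that levels of different genes can be set side by side.

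Neutrophils are made in the bone marrow, and as they mature they stop making the proteins of their azurophil granules, then those of their specific granules, and last those of their gelatinase granules. S100a8 and S100a9 encode the subunits of calprotectin, an alarmin that fills the neutrophil cytosol, and Csf3r encodes the receptor of the growth factor that drives granulopoiesis. Stefins (type 1 cystatins) are small cytosolic inhibitors of cysteine proteases such as cathepsins, and in the mouse the stefin A genes have multiplied into a cluster of closely related copies that neutrophils transcribe.

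The ND members held 1409003 UMIs of the 48558889 in their library, with a median of 3967 UMIs and 1085 genes per cell. The HFD members held 1103360 of 49940976 UMIs, with a median of 3758.5 UMIs and 1033.5 genes. Both sets were therefore of like depth, and the median share of mitochondrial UMIs was 0.130% in ND and 0.153% in HFD. The 10 deepest members held 16.3% of the members' UMIs in ND and 20.7% in HFD, so that sums over members lean on a few cells. Doublets were not removed. Scrublet marked 0.149% of ND and 0.370% of HFD cells, among them no member, a rate at which the caller cannot be taken to have worked. The libraries shared 15 barcodes, which belonged to 0 ND members and 1 HFD member.

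The label fits the cells in its neutrophil part, by genes that the rule did not use. Retnlg, a secreted protein of neutrophils, was found in 99.3% of ND and 99.6% of HFD members, and Mmp9, the gelatinase that names the last granules, in 93.4% and 93.1%. The chemokine receptor gene Cxcr2 was found in 72.4% and 61.6%, and Ly6g, a surface protein of mouse neutrophils, in 42.3% and 34.9%. Mki67, a gene of dividing cells, had UMIs in 1.75% and 2.59% of members. The word dominant holds only against the 3 genes of the rule, since the 4 stefins made up 0.867% (95% interval 0.852 to 0.883) of the ND members' UMIs and 0.956% (0.938 to 0.974) of the HFD members'. Calprotectin RNA stood far above them: S100a9 had 128406 UMIs per 1000000 UMIs of the members (UPM) in ND and 119403 in HFD, and S100a8 91639 and 89934. After these and Retnlg (34437 and 30972 UPM), the 15 most abundant RNAs were Malat1, Fth1, Actb, Tmsb4x, Gm42418, S100a6, Srgn, Ftl1, S100a11, Lyz2, Actg1 and Tyrobp, genes of iron storage, the cytoskeleton and myeloid granules among them. Intervals here and in what follows are exact 95% intervals (Poisson for levels, Clopper-Pearson for shares) and cover counting error only.

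As a share of kept cells the members made up 4.74% (4.22 to 5.31) in ND and 3.73% (3.27 to 4.23) in HFD. Among mature neutrophils, which are all cells that met the rule up to its last clause, they made up 19.7% of 1454 cells (17.7 to 21.8) in ND and 18.3% of 1266 (16.2 to 20.6) in HFD. The second pair of intervals overlaps widely, while the first pair overlaps by a narrow margin. With every cell thinned to 1000 UMIs before the rule was applied, the shares of kept cells were 3.06% (2.64 to 3.53) and 2.38% (2.02 to 2.79), after 55 ND and 51 HFD cells with fewer UMIs had been left out. The share thus depends on depth, and the order of the libraries was the same at both depths.

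By the counts that the rule used, cells ran across the line without a gap, and whether the members form a separate group by other genes was not tested. The stefin sum of a member had a median of 35 UMIs in ND (quartiles 20 and 55.75, range 1 to 163) and of 36 in HFD (23.75 and 54, range 1 to 250). Their Il1b, Il1r2 and Ccrl2 sum had a median of 14 UMIs in ND and 16 in HFD, so that most members held both kinds of RNA, and 4 ND and 3 HFD members had none of the latter. Just inside the line, 19 ND and 15 HFD members led by 1 UMI. Just outside it, 23 ND and 16 HFD mature neutrophils had equal sums, and 22 and 10 fell short by 1 UMI. The stefin median of the latter was 0 UMIs in ND and 12.5 in HFD, against 17 and 18 in members that led by 1. Many of these ND cells thus held almost no counts of either kind. By share, the stefins made up 40 to 50% of both sums in 78 ND and 74 HFD cells, and 50 to 60% in 84 and 78. At the other end of the scale, 605 ND and 554 HFD mature neutrophils had no UMI of the 4 stefins. The granule clause was passed narrowly too, with a Ngp, Camp and Ltf share of 0.25 to 0.5% in 38 ND and 23 HFD members, while 35 and 25 cells missed the rule only through a share of 0.5 to 1%. A further 20 ND and 18 HFD cells missed it only because no Csf3r UMI was seen.

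**Figure D1:**
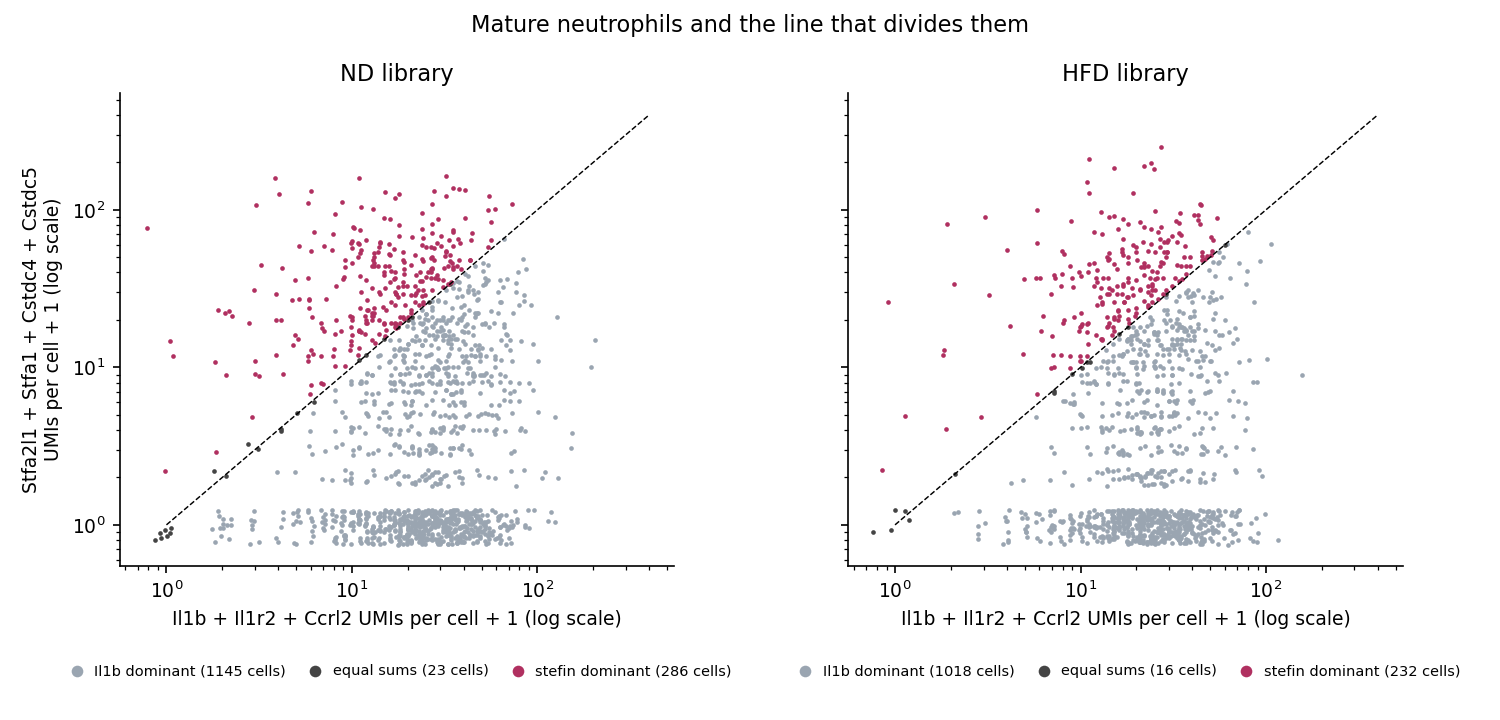
Each point is a mature neutrophil, with its Il1b, Il1r2 and Ccrl2 UMIs (x axis) against its UMIs of the 4 stefins (y axis), both plus 1 on log scales with a small random shift to separate points, for the ND (left) and HFD (right) library. The dashed line marks equal sums. The 286 ND and 232 HFD members lie above it, and the cells run across the line without a gap.

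The stefin genes lie side by side on chromosome 16, and the region just before the transcription start is shown for 6 of them because they share the same short blocks there. From Stfa2l1 to Stfa3 the genes span 298.582 kb of mouse chromosome 16 (RefSeq, GRCm38.p6, the assembly that the submitters' processing notes call mm10). Stfa2l1 (chr16:36156811-36161948), Cstdc4 (chr16:36184212-36188111) and Stfa1 (chr16:36277148-36285371) lie on the plus strand, and Cstdc5 (chr16:36359382-36367570), Stfa2 (chr16:36403946-36408363) and Stfa3 (chr16:36450537-36455392) on the minus strand. The GENCODE vM21 annotation names Cstdc4 Gm5483 and Cstdc5 BC100530 under the same identifiers. The lines give the 90 bases before each RefSeq transcription start, 5′ to 3′ on the strand of the gene, with the shared blocks AGAGGAGGAG and ACCTTTAAAACC in capitals.
Stfa2l1 (chr16:36156721-36156810, plus strand): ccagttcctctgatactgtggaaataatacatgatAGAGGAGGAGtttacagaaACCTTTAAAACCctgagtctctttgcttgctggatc
Cstdc4 (chr16:36184122-36184211, plus strand): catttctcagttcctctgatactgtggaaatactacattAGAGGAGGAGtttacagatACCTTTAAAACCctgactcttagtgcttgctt
Stfa1 (chr16:36277058-36277147, plus strand): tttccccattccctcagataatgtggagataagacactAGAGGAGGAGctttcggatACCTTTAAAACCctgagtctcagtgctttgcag
Cstdc5 (chr16:36367571-36367660, minus strand): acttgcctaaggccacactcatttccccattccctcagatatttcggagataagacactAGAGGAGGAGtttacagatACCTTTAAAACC
Stfa2 (chr16:36408364-36408453, minus strand): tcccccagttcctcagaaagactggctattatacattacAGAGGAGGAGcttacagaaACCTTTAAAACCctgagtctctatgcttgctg
Stfa3 (chr16:36455393-36455482, minus strand): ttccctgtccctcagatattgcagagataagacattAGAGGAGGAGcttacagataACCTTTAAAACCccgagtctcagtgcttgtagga

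The blocks were found as the letters that all 6 sequences share, and were then searched on both strands of the 90 bases before the start of the 32851 promoters in the RefSeq table. ACCTTTAAAACC occurred in 10 windows (0.0304%), AGAGGAGGAG in 117 (0.356%), and both in 7 (0.0213%). The 10 windows belonged to the 6 genes shown, to Csta3, Cstdc3 and Gm7260 in the same cluster, and to Gm39539 on chromosome X, and Cstdc3 was the seventh window with both blocks. Cstdc3, Gm7260 and Gm39539 were not analysed here. A match describes the letters in these windows and not a site that a factor was shown to bind.

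Cstdc4 and Stfa2l1 carried most of the stefin RNA of the members. Cstdc4 gave 54.3% of the UMIs of the 4 stefins in ND and 46.3% in HFD, Stfa2l1 32.9% and 35.7%, Cstdc5 6.42% and 6.74%, and Stfa1 6.31% and 11.3%. The level of Cstdc4 was 4713 UPM (4600 to 4827) in ND and 4421 (4298 to 4547) in HFD, and that of Stfa2l1 2856 (2768 to 2946) and 3410 (3301 to 3520). Stfa1 was at 547 UPM (509 to 587) in ND and 1083 (1023 to 1146) in HFD, a log2 ratio of 0.98 and the widest difference between the libraries among the genes of the rule. Cstdc5 was at 556 UPM (518 to 597) and 644 (598 to 694). The copies are closely related, and reads could have been split between them in part by chance of alignment. This was not tested, and their sum may be firmer than the share of any copy.

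Stefins outside the rule were present as well. Stfa2 was at 225 UPM (201 to 251) in ND and 111 (91.8 to 132) in HFD, and Stfa3 at 104 (88.1 to 123) and 44.4 (32.9 to 58.7), so that both stood lower in the HFD library, against the direction of Stfa1. Csta3 was at 62.5 and 68.9 UPM, while Csta2 had 9 and 13 UMIs, Cstdc6 3 and 4, and Csta1 none in either library, which allows up to 2.13 UPM in ND and 2.72 in HFD. The cystatin genes Cstb and Cst3, which lie on other chromosomes, were at 234 and 1060 UPM in ND and 317 and 905 in HFD. Levels of Csta2, Cstdc6 and Csta1 could not be compared at this depth.

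Within the members Stfa2l1 and Cstdc4 were mostly either at high counts or not seen, in cells that the rule took for a high stefin sum. Stfa2l1 was seen in 81.1% of ND and 81.0% of HFD members, and where it was seen its median was 15 and 17 UMIs. Cstdc4 was seen in 80.1% and 81.9%, with a median of 23 and 21 UMIs. Few cells lay between, since 25 ND and 16 HFD members had 1 to 4 UMIs of Stfa2l1, against 54 and 44 with none and 207 and 172 with 5 or more. In mature neutrophils of ND whose Il1b, Il1r2 and Ccrl2 sum was the larger, 202 had 1 to 4 UMIs of Stfa2l1 and 233 had 5 or more. Both genes were found in 63.6% of ND members (57.8 to 69.2) and 65.1% of HFD members (58.6 to 71.2), Stfa2l1 without Cstdc4 in 17.5% and 15.9%, and Cstdc4 without Stfa2l1 in 16.4% and 16.8%. Members that held neither gene numbered 7 in ND and 5 in HFD, and their stefin UMIs came from Stfa1 or Cstdc5.

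The other copies were seen in fewer members, and not all of them at high counts. Stfa1 had a UMI in 15.4% of ND members (11.4 to 20.1) and 22.8% of HFD members (17.6 to 28.8), with a median of 14 and 17 UMIs in the cells that had any. Cstdc5 had one in 12.2% (8.67 to 16.6) and 15.5% (11.1 to 20.8), with a median of 15 and 13 UMIs. The intervals of these shares overlap between the libraries, although the summed level of Stfa1 differed by more than its counting error. Stfa2 was found in 8.39% and 9.48% of members, with a median of 5.5 and 2 UMIs, and Stfa3 in 10.5% and 7.76%, with a median of 3 and 2.5. Stfa3 had 1 to 4 UMIs in 18 ND and 16 HFD members against 5 or more in 12 and 2, and Stfa2 had 1 to 4 in 10 and 16 against 5 or more in 14 and 6. Of these 6 stefins, 1 reached 5 UMIs in 107 ND and 78 HFD members, 2 did in 141 and 117, and 3 did in 27 and 29.

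**Figure D2:**
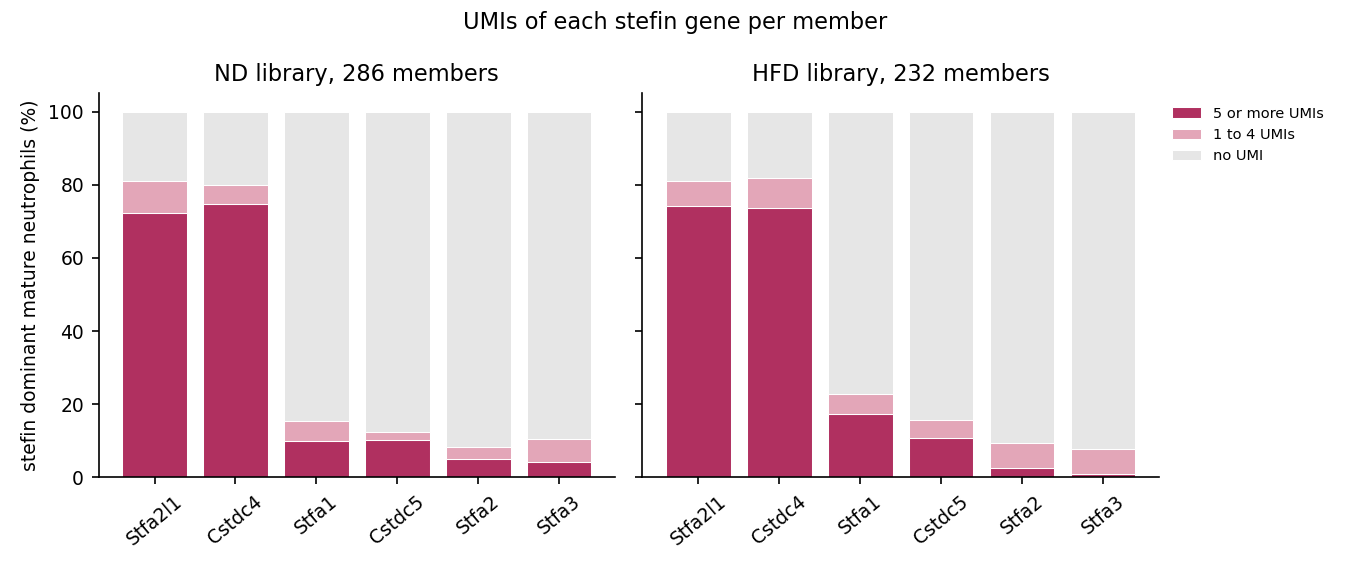
Each bar is a stefin gene, and its segments give the percentage of members with 5 or more, 1 to 4, or no UMIs of it, for the 286 ND members (left) and the 232 HFD members (right). For Stfa2l1 and Cstdc4 the segment of 1 to 4 UMIs is thin between those of many UMIs and none, and the other copies are seen in 7.76 to 22.8% of members.

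Stefin RNA was not confined to the members. In mature neutrophils whose Il1b, Il1r2 and Ccrl2 UMIs exceeded their stefin UMIs (Il1b dominant, 1145 ND and 1018 HFD cells), Stfa2l1 was found in 38.0% and 35.5% of cells and Cstdc4 in 26.0% and 23.5%, and the 4 stefins made up 0.121% and 0.119% of UMIs. In neutrophils that still held specific granule RNA (553 and 642 cells), Stfa2l1 was found in 23.7% and 24.6% of cells, with a median of 9 and 12 UMIs in those, and the 4 stefins made up 0.0656% and 0.0871% of UMIs. These cells were deeper, with a median of 10323 and 9530.5 UMIs against 3967 and 3758.5 in members. In cells with Cd79a and Cd79b, which are B cells and should lack stefins, Stfa2l1 was found in 1.53% and 1.94% of cells at a median depth of 3929 and 3901 UMIs, near that of the members, and the 4 stefins made up 0.000947% and 0.000842% of UMIs. The shares in Il1b dominant cells and in neutrophils with specific granule RNA were above this background, while the rule fixed a high share in members.

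Next, the members were set against the Il1b dominant mature neutrophils, the cells nearest to them. The rule split these cells from each other, so that this comparison describes the split and is no test of it. Of 9823 genes with at least 20 UMIs, 601 (6.12%) were at least 1.5-fold higher in members in both libraries and 364 (3.71%) at least 1.5-fold lower. This balance differed with the cells that held RNA of other cell types left out of both classes (29 ND and 19 HFD members, 70 and 50 Il1b dominant cells): 156 of 7652 genes were higher and 641 lower, and with every cell given equal weight 524 were higher and 655 lower. Median depth was 3967 UMIs in ND and 3758.5 in HFD members, against 3229 and 3205.5 in Il1b dominant cells.

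Among genes outside the rule, stefins stood highest in members. Stfa2 had 225 UPM in ND members against 17.7 in Il1b dominant cells (log2 ratio 3.67), and 111 against 9.93 in HFD (3.46). Stfa3 followed with log2 ratios of 2.44 in ND and 2.01 in HFD, and Csta3 with 1.77 and 2.27. Of 9 genes of the stefin and cystatin list, which does not hold Csta3, 6 were higher in both libraries, and 4 of the 6 belong to the rule, which fixed their direction. Itgb2l, an integrin beta chain of the neutrophil surface, had 42.6 UPM in ND members and 18.8 in Il1b dominant cells, and 41.7 against 13.9 in HFD. The other 6 genes in the highest 10 (Ctla2a, Sdc2, Clec3b, Cd34, Apod and Abi3bp) had 61.3 to 97.6% of their member UMIs in 3 cells of each library. With the cells that held RNA of other types left out, the level of Clec3b in members was 0.975 UPM in ND and 1.23 in HFD, 1 UMI in each. In Il1b dominant cells it was 3.87 and 4.32 UPM. Ctla2a and Cd34 were then also lower in members of both libraries, Sdc2 and Abi3bp in HFD (−0.82 and −0.95) and Apod in ND (−1.55). These 6 genes were thus not higher in both libraries without those cells, on few UMIs.

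Part of the genes of inflammatory signalling were lower in members. Of 33 such genes, 13 were at least 1.5-fold lower in both libraries and 1 higher, with a median log2 ratio of −0.64 in ND and −0.52 in HFD, but Il1b, Il1r2 and Ccrl2 are in this list and chose the cells. Without them, Cxcl2, a chemokine that attracts neutrophils, had 2911 UPM in ND members and 5903 in Il1b dominant cells, and 3761 against 5926 in HFD. Ccl4, a chemokine of monocytes and lymphocytes, had 307 against 739 and 516 against 865. Csf1, the growth factor of macrophages and osteoclasts, had 78.1 UPM against 170 in ND and 53.5 against 140 in HFD. The gene higher in members was Il6, a cytokine that stromal cells also make. With cells that held RNA of other types left out, 7 of 32 genes of this list (21.9%) were lower in both libraries and none higher, and Il1b, Il1r2 and Ccrl2 are 3 of the 7. Among all genes tested in those cells, 8.38% were lower and 2.04% higher. The HFD log2 ratios of Cxcl2 and Ccl4 were then −0.45 and −0.47, not past 1.5-fold.

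Genes of survival and apoptosis and of the interferon response were in part lower too. Of 22 genes of survival and apoptosis 5 were lower in both libraries (Bcl2a1a, Bcl2a1b, Bcl2a1d, Birc3 and Gadd45b), and none higher. Bcl2a1b, whose product protects neutrophils from apoptosis, had 39.0 UPM in ND members against 169 in Il1b dominant cells and 77.9 against 181 in HFD. Reads of the Bcl2a1 copies could be split between them, which was not tested. Of 34 interferon-stimulated genes 6 were lower in both libraries (Isg15, Ifit1, Ifit3, Ifit3b, Rsad2 and Slfn5) and none higher. Isg15, a ubiquitin-like modifier, had 176 UPM against 420 in ND and 206 against 530 in HFD, and Rsad2, the antiviral enzyme viperin, 45.4 against 111 and 58.0 against 142. The other genes among the lowest 10 were AW011738, Clec4n (a receptor for fungal sugars, 16.3 against 74.6 and 8.16 against 61.4), Ggct, Cilp, Gngt2, Itga4 and Ctss. Of these, AW011738 (2 UMIs) and Cilp had 100% of their ND member UMIs in 3 cells. With cells that held RNA of other types left out, Cilp was higher in HFD members, at 3.68 against 1.85 UPM.

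Genes of granules and of the surface differed less in the sums. The specific granule list had no gene of 11 past 1.5-fold in both libraries, with medians of 0.45 and 0.27, and neither had the 7 genes of the NADPH oxidase, with medians of −0.15 and −0.17, or the 19 of glycolysis, with −0.02 and 0.01. Of 30 surface receptor genes 1 was higher (Itgb2l) and 2 lower (Csf3r, a gene of the rule, and the lipopolysaccharide coreceptor Cd14). Of 15 gelatinase granule and late maturation genes only Wfdc17 was past the fold in both libraries, and lower. Ly6g had 265 UPM in ND members against 119 (log2 ratio 1.16), and 154 against 106 in HFD (0.54), so that it passed 1.5-fold in ND but not in HFD. Several of these calls differed with cells that held RNA of other types left out. The log2 ratio of Ly6g was then 1.11 in ND and 0.74 in HFD, past 1.5-fold in both, so that 2 of 30 surface receptor genes were higher (Itgb2l and Ly6g) and none lower, with Csf3r at −0.51 and −0.48 and Cd14 at −0.69 and −0.58. Of 6 NADPH oxidase genes 1 was higher, Cybb, which encodes the catalytic subunit, at 0.67 and 0.71. In the same cells 2 of the 11 specific granule genes were higher in both libraries, Cybb again and Ngp (0.99 and 0.64), a gene of the rule. Of the 15 late maturation genes 2 were higher and 1 lower. The interferon and survival lists had 6 of 33 and 7 of 22 genes lower (18.2% and 31.8%, against 8.38% of all genes tested there). These are not all the interferon and survival genes named above, since the HFD log2 ratios of Ifit1 and Gadd45b were then −0.38 and −0.54, not past 1.5-fold.

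Levels of several genes were also compared along the balance of stefin and Il1b RNA. For this, mature neutrophils free of RNA of other types were divided by their stefin sum into cells with none, with at most the Il1b sum, above it, and at least 2 times it, the last 2 being members. Retnlg was at 24322, 21287, 34239 and 43559 UPM in ND, in this order, and at 24919, 21480, 33881 and 41148 in HFD. Ly6g was at 146, 119, 199 and 348 UPM in ND and at 127, 93.8, 178 and 195 in HFD. Cells with no stefin RNA thus stood slightly above those with some, and members above both.

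The specific granule gene Lcn2, which encodes an iron scavenger, was at 2061, 1783, 2552 and 3294 UPM in ND and at 1803, 1618, 2455 and 2370 in HFD. The collagenase gene Mmp8, also of the specific granules, was at 1004, 819, 1142 and 1828 and at 936, 757, 1070 and 1301. In the other direction Isg15 was at 452, 484, 274 and 144 UPM in ND and at 626, 501, 241 and 273 in HFD. Csf1 was at 180, 202, 103 and 64.05 and at 139, 160, 63.1 and 59.9. Wfdc17, of the late maturation list, was also lower in members, at 526, 743, 422 and 248 UPM in ND and at 648, 719, 367 and 231 in HFD. In ND, levels of Mmp9 (1038, 943, 995 and 1167 UPM), of Cxcr2 (461, 468, 455 and 414) and of the marrow homing receptor Cxcr4 (576, 605, 460 and 492) varied less along the same order. In HFD, Mmp9 was at 1039, 930, 1042 and 1153 UPM and Cxcr4 at 549, 596, 507 and 470. Cxcr2 was there at 462, 419, 337 and 368 UPM, lower in the members. The genes shown here were chosen after their values were seen and stand for no list, and the median depth of the 4 sets was between 3103 and 3966.5 UMIs in ND and between 3092 and 3745 in HFD.

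**Figure D3:**
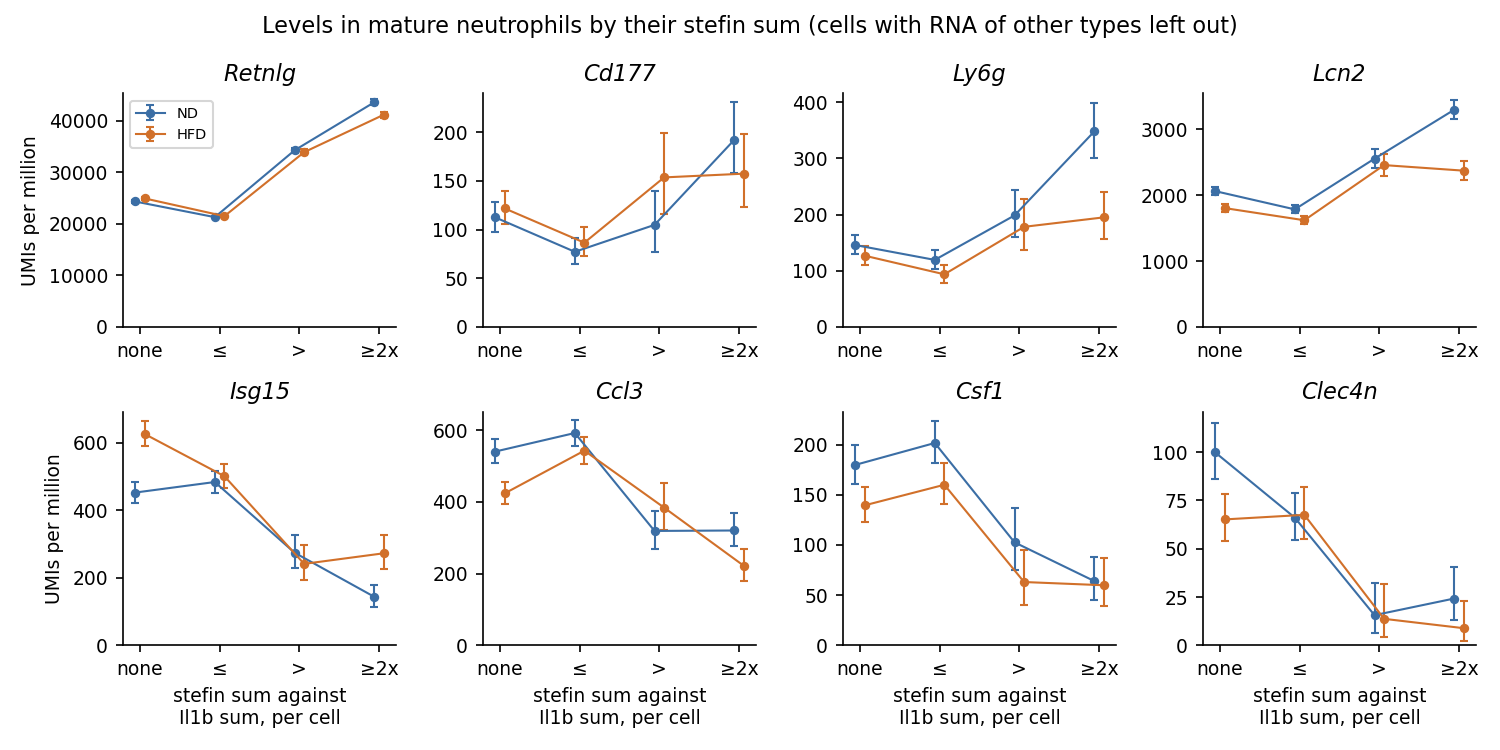
Each panel is a gene, with its level in UPM (y axis) in 4 sets of mature neutrophils ordered by stefin sum: none, at most the Il1b, Il1r2 and Ccrl2 sum, above it, and at least 2 times it (x axis). Points are summed levels of the ND and HFD libraries, bars are exact 95% counting intervals, and cells with RNA of other types are left out. Retnlg, Ly6g and Lcn2 are higher in the 2 right-hand sets, which are the members, and Isg15, Ccl3, Csf1 and Clec4n are lower there. Cd177 is higher in the last set alone in ND (113, 77.2, 105 and 192 UPM) and in both right-hand sets in HFD (122, 86.6, 154 and 157 UPM).

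RNA of other cell types was found in a few members. Markers of mesenchymal and bone cells summed to 3730 UMIs in ND members (2647 UPM) and 1968 in HFD members (1784 UPM), with Dcn as the most abundant and none of the 12 at 0, and 5 cells held 74.5% and 77.4% of these UMIs. Azurophil granule genes, which mark progenitors, summed to 2494 UMIs (1770 UPM) and 4294 (3892 UPM), with Elane leading and none of 8 at 0, and 5 cells held 83.6% and 92.4%. Monocyte and macrophage markers summed to 1364 and 948 UMIs, led by Fn1, with Mrc1 at 0 among 12. In all, 29 ND and 19 HFD members had at least 10 UMIs of such a list or more than 10000 UMIs in total.

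Other lineages were lower. B cell markers summed to 343 and 337 UMIs, led by Ighm in ND and Cd74 in HFD, with Cd79a at 0 by the rule and Ighd at 0 in HFD. Erythroid and platelet markers summed to 302 and 343 UMIs, led by Hbb-bs, with Ppbp at 0 in both and Alas2 at 0 in HFD. T and NK cell markers summed to 155 and 164, led by Nkg7, with Ncr1 at 0. Endothelial and pericyte markers summed to 177 and 109, led by Acta2, with Notch3 at 0 in both and Kdr at 0 in HFD. Eosinophil, basophil and mast cell markers summed to 31 and 30, led by Prg2 in ND and Cpa3 in HFD, with Epx, Il5ra, Fcer1a and Ms4a2 at 0. Whether this RNA was free RNA, from attached cells or from a second cell in the droplet was not tested.

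The question put by the diets was whether the RNA of these cells differed with HFD feeding. With 1 library per diet a gene was called only by size. Of 6375 genes with at least 20 UMIs in the members of both libraries together, 853 (13.4%) were at least 1.5-fold higher in HFD and 896 (14.1%) at least 1.5-fold lower, with a median log2 ratio of −0.00. With the 29 ND and 19 HFD members that held RNA of other types left out, 305 of 4423 genes were higher and 577 lower. Among the 10 lowest and 10 highest ratios, most followed those cells: 7 of the 10 lowest had over 50% of their ND UMIs in 3 cells, and all 10 highest had over 50% of their HFD UMIs in 3 cells.

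The lowest ratios that did not lie in 3 cells were those of Jun, Rhob and Klf2. Jun, a subunit of the transcription factor AP-1, was at 1148 UPM in ND and 201 in HFD (log2 ratio −2.51, −2.72 to −2.31). Rhob, a small GTPase gene induced early after stimuli, was at 551 and 112 UPM (−2.29, −2.58 to −2.02). Klf2, a transcription factor that restrains inflammatory activation, was at 1785 and 456 UPM (−1.97, −2.11 to −1.83). All 3 are early response genes, and their ratios with members holding other RNA left out were −2.83, −2.27 and −1.93. The other 7 of the 10 lowest were the matrix genes Fbn1, Mfap5 and Aspn, and Hspb1, Cd55, Mt2 and Fabp4. They had 74.9 to 96.9% of their ND UMIs in 3 cells. With members holding other RNA left out, the ratios of these 7 genes were all above 0, the opposite direction. Fabp4 and Cd55 were at 2.97 and 0.89, and Fbn1, Mfap5, Aspn, Hspb1 and Mt2 at 1.92, 3.14, 2.65, 0.17 and 0.78. Few UMIs were left, such as 0 in ND and 1 in HFD of Fbn1. Of 6 mesenchymal and bone genes 4 were then higher in HFD and none lower (median 0.94).

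The 10 highest were Stmn1, Hist1h2ae, Mgp, Prg4, Mpo, Hist1h2ap, Ctsg, Plac8, Elane and H2afy. Among them are genes of dividing cells, of joint and cartilage matrix, and of azurophil granules. In HFD, 3 cells held between 69.6% (Plac8) and 98.5% (Elane) of the member UMIs of these genes. With members holding other RNA left out, Stmn1, Hist1h2ae, Hist1h2ap, Ctsg and H2afy had ratios below 0 (−0.10, −0.30, −0.57, −0.72 and −0.34). Mgp, Prg4, Mpo, Plac8 and Elane stayed above 0. Lists of the same kind followed the 10 genes. Of 18 proliferation genes 12 were higher and 1 was lower in the HFD library, the median was 1.32, and the median was −0.16 over the 7 genes left when members with other RNA were left out. Of 8 azurophil granule genes 4 were higher and none lower, with a median of 0.64, and of 0.27 over the 4 genes left.

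Immediate-early genes and genes known to respond to tissue dissociation were lower in HFD as a group. Of 31 listed genes 21 were at least 1.5-fold lower in HFD and none higher, with a median log2 ratio of −0.78. Without the members that held other RNA, 14 of 27 were lower and none higher, with a median of −0.59, so that the direction did not rest on those cells. Fos, the partner of Jun in AP-1, was at 1623 UPM in ND and 501 in HFD (−1.69), Zfp36, which speeds the decay of cytokine mRNAs, at 987 and 378 (−1.38), and Egr1 at 436 and 222 (−0.97). Junb and Jund were nearer, at 2127 and 1242 UPM and at 2228 and 1329. Btg1, Dusp5, Atf3 and Nr4a1 did not reach 1.5-fold in either direction, with ratios of 0.21, 0.40, −0.06 and −0.13.

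Heat-shock chaperone genes were lower in part. Of 14 such genes 7 were lower and 2 higher, with a median of −0.64, and without the members that held other RNA 5 of 9 were lower, with a median of −0.70. Hspa1a, an inducible chaperone, was at 182 UPM in ND and 67.1 in HFD, and Hspa1b, its near-identical copy, at 168 and 77.9. Hsp90aa1 was at 356 and 205, while the constitutive Hspa5 (417 and 355) and Dnaja1 (916 and 784) were nearer to each other. Without the members that held other RNA, levels were lower in both libraries. Hspa1a was then at 31.2 and 14.7 UPM, Hspa1b at 47.8 and 17.2, and Hsp90aa1 at 236 and 85.8. A further list held genes predicted as targets of sensory neurons in the immune cells of the periosteum. Of its 13 genes 8 were lower in HFD and none higher, with a median of −0.75. Of these, Jun, Junb, Jund, Fosb, Egr1, Zfp36, Klf6 and Dusp1 are also in the early response list, and Pim1 (1111 and 1150 UPM) and Nfkbia (1624 and 1337) did not pass 1.5-fold.

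The early response difference was widest among the ND members with the highest levels. The UMIs of the 31 genes per 10000 UMIs of a cell had a lower quartile of 111, a median of 147 and an upper quartile of 227 in ND, and of 106, 134 and 172 in HFD. The 90th percentile was 471 in ND and 218 in HFD, so that the libraries parted in their upper tails more than in their middles. A level of 300, set after these values were seen, was reached by 52 of 286 ND members (18.2%, 13.9 to 23.1) and 9 of 232 HFD members (3.88%, 1.79 to 7.24), and 17 ND and 14 HFD members lay between 250 and 350. At 1000 UMIs per cell the shares were 20.3% and 4.74%, and without members that held other RNA 17.1% and 3.76%.

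Other cells differed in the same direction. The same level was reached by 18.6% of ND and 7.56% of HFD Il1b dominant cells, by 7.59% and 0.156% of neutrophils with specific granule RNA, and by 31.9% and 14.4% of B cells. Whether the ND tail came from 1 mouse, from the handling of 1 suspension or from the diet cannot be told apart, as each diet is 1 pooled library.

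The 44 ND members at that level that held no other RNA were set beside the other 213. Jun was at 4218 UPM in the 44 and 172 in the 213, Fos at 5943 and 208, and Klf2 at 6878 and 664, while HFD members below the level had 121, 378 and 452. These genes chose the 44 cells, so that their values are a description. Of genes that did not, Il1r2, a decoy receptor of interleukin 1, was at 415 UPM in the 44 and 2248 in the 213, and Cxcl2 at 2069 and 3870. In the other direction Cxcr2 was at 680 and 372 UPM, Cxcr4 at 680 and 429, and Mmp9 at 1484 and 996. The stefin copies were unequal, with Cstdc5 at 94.97 UPM in the 44 and 634 in the 213, Stfa2l1 at 3179 and 3535, Cstdc4 at 4498 and 5520, and Stfa1 at 675 and 594. Retnlg was at 35907 and 40354 UPM. In HFD the same split left 8 cells against 205, and Cxcl2 was there higher in the 8, at 6789 UPM against 4611, with Retnlg at 18470 and 38481. Median depth was 4551 UMIs in the 44 and 3659 in the 213.

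**Figure D4:**
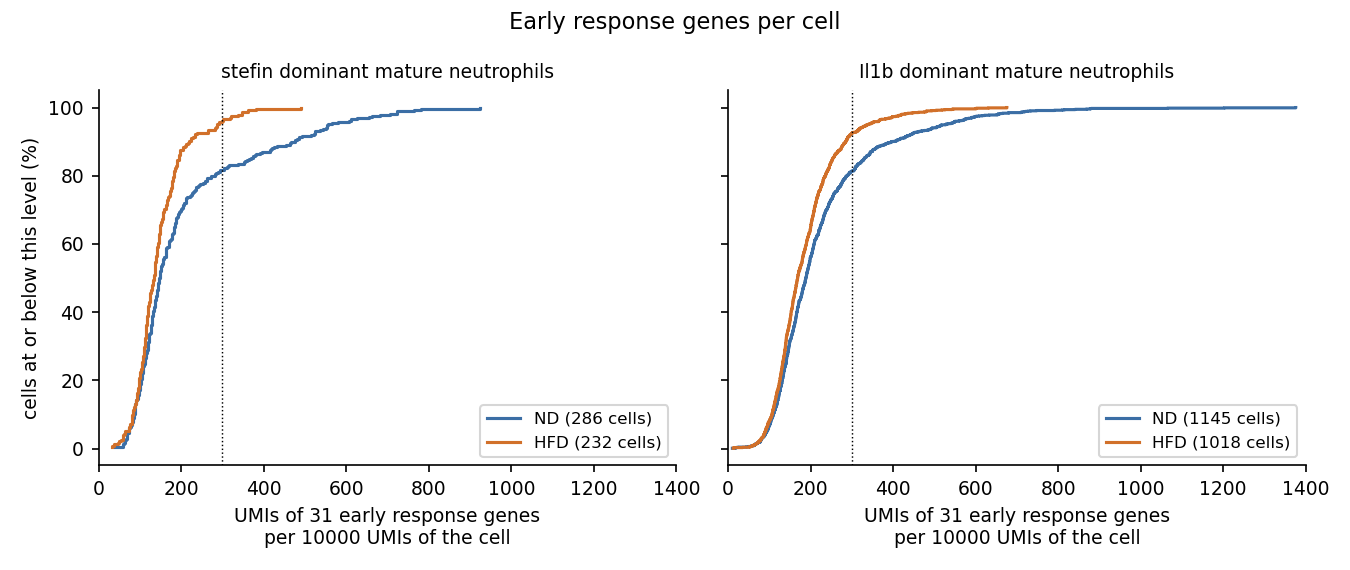
Cumulative percentage of cells (y axis) at or below a level of the 31 early response genes in UMIs per 10000 UMIs of the cell (x axis), for members (left) and Il1b dominant mature neutrophils (right) of the ND and HFD libraries. The dotted line marks the level of 300, which 18.2% of ND and 3.88% of HFD members reached. The curves run together at low levels and part in the upper tail.

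Lists of mature neutrophil function differed little between the libraries in members. Of 30 surface receptor genes 2 were lower in HFD and none higher, with a median of −0.08. They were Ly6g (265 and 154 UPM) and the Fc receptor gene Fcgr3 (282 and 179), of which Fcgr3 had a log2 ratio of −0.58, not past 1.5-fold, with members holding other RNA left out. Csf3r (758 and 733), Itgam (304 and 283) and Cxcr4 (395 and 411) lay close together. None of 6 NADPH oxidase genes passed 1.5-fold (median −0.03), and among 28 genes of adhesion and actin 2 were lower (median 0.03), of which Rhob is in the early response list.

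Inflammatory genes were mixed. Of 31, 3 were past 1.5-fold in each direction, and the median log2 ratio was −0.07. Ccl4 was at 307 UPM in ND and 516 in HFD (log2 ratio 0.75), Osm, a cytokine that acts on bone-forming cells, at 238 and 145 (−0.71), and Cxcl2 at 2911 and 3761 (0.37). Of 25 interferon-stimulated genes 3 were higher and 1 lower (median 0.07), and Isg15 was at 176 and 206 UPM. Of 18 glycolysis genes 1 was higher and 1 lower (median 0.00), the lower one being the hexokinase gene Hk2 at 86.6 and 19.9 UPM. Of 24 genes of lipid uptake, storage and oxidation 2 were higher and 3 lower (median −0.00), and Plin2, which coats lipid droplets, was at 282 and 274. With members holding other RNA left out, 3 of the 19 lipid genes left were higher and none lower (median 0.11), and 4 of the 21 interferon-stimulated genes left were higher and none lower (median 0.12). The higher genes were 15.8% and 19.0% of these lists, against 6.90% higher and 13.05% lower among all genes tested there.

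Granule, survival and regulator genes lay between. Of 11 specific granule genes 1 was higher and 1 lower (median −0.25), with Lcn2 at 2804 and 1976 UPM and Mmp8 at 1346 and 987. Of 15 gelatinase granule and late maturation genes 2 were lower (median −0.19), and Retnlg was at 34437 and 30972 UPM. Of 20 genes of survival and apoptosis 1 was higher and 4 lower (median −0.23), with Mcl1, on which neutrophil survival depends, at 1695 and 1756 UPM. Of 18 transcription factors of granulopoiesis 4 were lower (median −0.11), among them Cebpd at 309 and 143 UPM, while Cebpb was at 3434 and 4045. Of 8 S100 genes 2 were lower (S100a4 and S100a10; median −0.19), though not without the members that held other RNA, where their ratios were 0.33 and 0.55. Of 9 stefin and cystatin genes 2 were higher and 2 lower (median 0.21). With those members left out, 1 of 11 specific granule genes was higher and none lower (median 0.02). The higher one was Ltf and the median was the ratio of Ngp, both genes of the rule. In the same members 1 of 15 late maturation genes was lower (median −0.06). Of 19 genes of survival and apoptosis 2 were higher and 6 lower (median −0.35). This list mixes genes that protect cells with genes that promote death, so that its median gives no direction for survival. Bcl2a1b was at 0.92 in these members, and Pmaip1 and Bid, which promote death, at −1.23 and −1.08. Among all genes tested there, 6.90% were higher and 13.05% lower. Over all members, and apart from the survival, transcription factor, S100 and stefin lists, these shares were at or below the 13.4% higher and 14.1% lower among all genes.

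Few receptors of sensory-nerve ligands could be read in members. Of 34 such genes 9 had enough UMIs, of which 2 stood higher and 2 lower in the HFD library (median −0.31). Among all genes, 13.4% were higher and 14.1% lower. Ramp1, a subunit of the receptor of the neuropeptide CGRP, was at 83.7 UPM in ND and 141 in HFD and was found in 26.2% and 28.4% of members. With members that held other RNA left out, 3 of these genes had enough UMIs, of which none was higher and 1 lower (median 0.13). The log2 ratio of Ramp1 was then 0.13 and no longer past 1.5-fold. Of the clock genes, 3 had enough UMIs, of which 1 was lower in HFD and none higher (median −0.31). The median was −0.16 without members that held other RNA, and Per1 was at 153 and 138 UPM over all members.

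**Figure D5:**
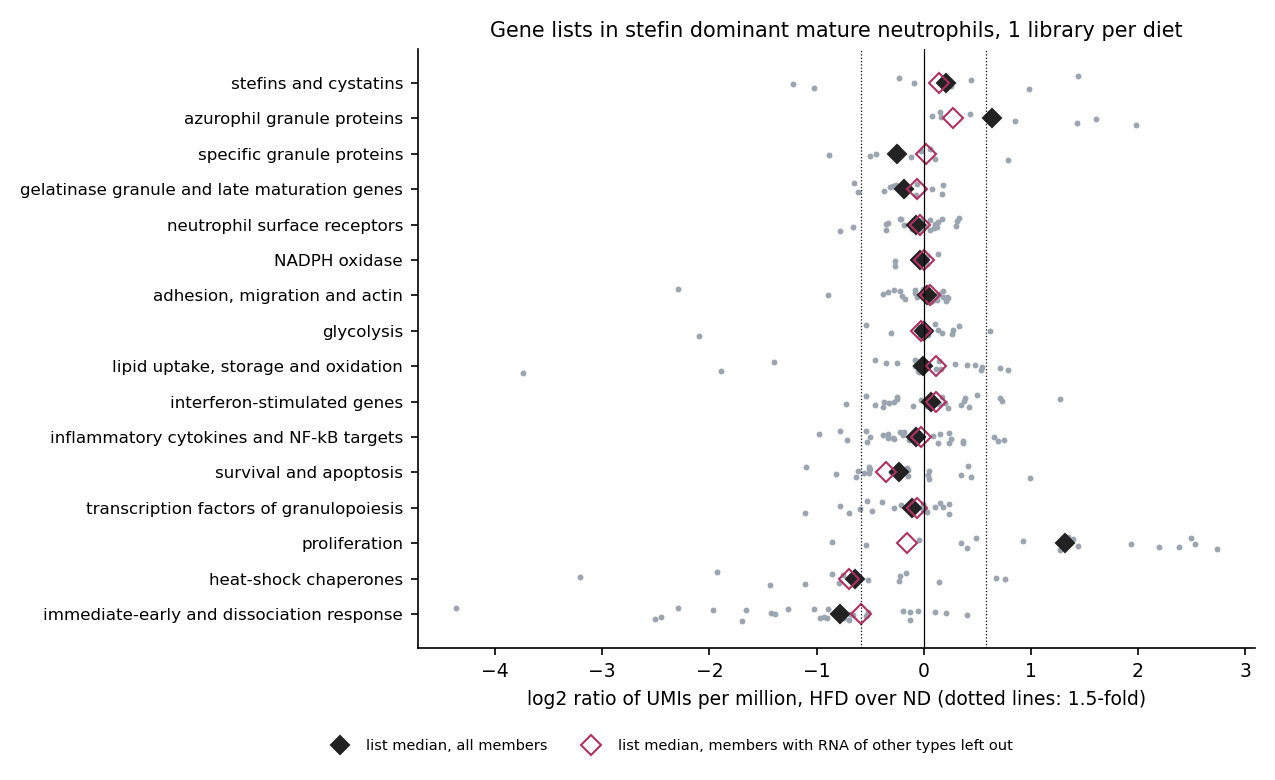
Each grey point is a gene of the list named on the left, placed by its log2 ratio of UPM, HFD over ND, in members (x axis). Filled diamonds are list medians over all members, open diamonds medians with members holding RNA of other types left out, and dotted lines mark 1.5-fold. The early response and heat-shock medians stay below 0 in both, the proliferation median moves from 1.32 to −0.16, and the lists of neutrophil function lie near 0.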

How the data were processed

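Droplet-based single-cell RNA sequencing was performed by the authors on periosteal cells of 4 ND and 4 HFD mice, and the deposited counts are unnormalized UMIs of each gene in each barcode, in 1 matrix per diet. The submitters' processing notes name Cell Ranger 6.0.1 and mm10. The members and all gene lists were chosen with earlier results of these data known. UMIs of the members were summed per library and expressed per 1000000, and log2 ratios were taken after adding 0.5 to each count, for genes with at least 20 UMIs. A gene was called past 1.5-fold. Groups are the diets as labelled, and 1 library per diet allowed no test. Named were the genes of the rule and of 28 lists, the 15 most abundant genes, and the 10 highest and 10 lowest ratios among genes with at least 200 UMIs. Others (Csta1, Csta2, Csta3, the genes that share a promoter block, and the levels along the stefin sum) were chosen after their values were seen. B cells had at least 2 Cd79a and 1 Cd79b UMIs. RNA of other types meant at least 10 UMIs of 1 such marker list or of the azurophil list, or over 10000 UMIs in total. Of 32285 gene identifiers, 32158 were found in GENCODE vM21. Clec7a and Mx1 were not analysed here, and Bmal1 was analysed under its older symbol Arntl. The computation was tested on simulated data. Other settings were 16 alternatives, 2 of them chosen after seeing the data. Scrublet was run in scanpy 1.11.5 (anndata 0.12.19), intervals were computed with scipy 1.17.1, sums with numpy 2.4.6 under Python 3.11.15, and plots drawn with matplotlib 3.10.9. Values of a few listed genes are not reported here.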

Additional observations from a re-analysis of the deposited data

How the results depend on the processing

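No paired analysis was possible because each diet is 1 pooled library. For the same reason no replicate could be left out, and depth limits single ratios, since a gene with 20 UMIs in both libraries together has a wide counting interval. Of the main values for comparisons and lists under the alternatives, 166 moved little (counts by less than 1.5 times, other values within their spread), 33 moved and 4 reversed. These values do not cover every list. Without cells that held other RNA the mesenchymal and bone median went from −0.47 to 0.94, and that of receptors of sensory-nerve ligands from −0.31 to 0.13.
The rule itself set the share of kept cells, which was 2.64% in ND and 2.02% in HFD with a margin of at least 2 times, and 3.06% and 2.38% with the rule applied at 1000 UMIs. The 4 stefins' share of members' UMIs was 0.939% (ND) and 1.20% (HFD) with that margin, 1.00% and 1.12% in members thinned to 1000 UMIs, 0.998% and 1.13% with cells weighted equally, 0.902% and 0.982% without the highest 5% of Scrublet scores, 0.993% and 1.17% without cells that held RNA of other types, and 1.09% (HFD) with at least 5% S100a8 and S100a9 UMIs.
Genes higher and lower in HFD numbered 315 and 1038 with at least 5% S100a8 and S100a9 UMIs, which left out 2 ND and 7 HFD members, 480 and 907 with the wider margin, 217 and 297 in thinned members, 372 and 388 at a minimum of 50 UMIs, 1391 and 1374 at a minimum of 10, and 305 and 577 without cells that held other RNA. The proliferation median reversed to −0.48 with at least 5% S100a8 and S100a9 UMIs, to −0.29 in thinned members and to −0.16 without cells that held other RNA, and was 0.072 with the wider margin. The azurophil median reversed to −0.069 with at least 5% S100a8 and S100a9 UMIs.
Against Il1b dominant cells, genes higher in members numbered 941 with the wider margin, 202 in thinned cells, 281 at a minimum of 50 UMIs and 156 without cells that held other RNA. Genes lower in members numbered 655 with cells weighted equally, 240 at a minimum of 50 UMIs and 641 without cells that held other RNA. Of 447 values of 30 genes or contrasts under the alternatives, 444 kept their sign, and the exceptions were values of Cstdc4, whose ratio lay near 0. Other named genes did reverse, among them Fabp4 and Cd55 without cells that held other RNA. The alternatives without cells that held other RNA and without the highest Scrublet scores were chosen after seeing the data.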
